A study of Sminthopsis crassicaudata with 9 samples.

Results

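The regions described here are gene starts that were active by RNA and bare of H3K4me3 in the newborn dunnart face. A start, or TSS, was the outermost exon end of a gene on its strand. Starts were chosen by RNA level and by H3K4me3: the gene had more than 10 TPM, transcripts scaled by length and library total, in all 3 RNA libraries, and no H3K4me3 peak at q under 0.05 lay within 3 kb of the start in either ChIP replicate. Of 21692 genes with usable counts, 7632 were over 10 TPM, and 362 of these starts had no such peak. That share, 4.74%, follows from the rule and carries no test.

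The animal was the fat-tailed dunnart, Sminthopsis crassicaudata, a small marsupial born at an early stage of facial development. H3K4me3 and H3K27ac were each measured by ChIP-seq in 2 replicates of craniofacial tissue from pouch young under 24 hours old, with an input library from the same pool for each replicate. The labels gave 26 heads for the first pool and 27 for the second, while the methods of the study gave a smaller total number of young for the dissection. RNA came from 3 libraries of the facial prominences on the day of birth, FP1, FP2 and FP3, each a pool of 2 young. Per the methods, tongue, eyes and neural tube had been dissected away. No genotype or treatment was given for any sample, all samples were of 1 tissue and age, and no group was compared with another. Gene models were those of the Tasmanian devil, a related marsupial, moved to the dunnart assembly, so a start was only as good as the transferred model.

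H3K4me3 is the histone mark laid down around the first exon of active genes, most strongly at CpG-rich promoters, and H3K27ac marks both active promoters and active enhancers. Genes of differentiated cells are used in few cell types, while genes of basic cell functions are used in nearly all. A transferred gene model keeps its exons only where they align, so its first exon can be missing. In a bulk tissue such as the face, fewer cells of a type and less RNA per cell cannot be told apart.

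The RNA libraries held 17419099, 16358621 and 16096971 counts on genes, and the peak lists gave no read depth for ChIP. Over the 362 starts the median RNA level was 26.3 TPM in FP1, 37.4 in FP2 and 29.2 in FP3, against 39.1, 45.2 and 37.7 over the 7270 starts that were over 10 TPM and had H3K4me3. The level was highest in FP2 for 239 of the 362 genes and for 4378 of all 7632. The starts were spread over the whole range of expression. They made up 88 of the 1418 genes with a mean of 10 to 20 TPM (6.21%), 161 of 3097 at 20 to 50 TPM (5.2%), 59 of 1662 at 50 to 100 TPM (3.55%), 44 of 1210 at 100 to 500 TPM (3.64%) and 10 of 245 over 500 TPM (4.08%).

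The starts nearest to each limit of the rule are given as a description. Just inside the RNA limit was FBXW7, with 10.0 TPM in its lowest library, and just outside was SCRN3, with 9.98 TPM. Just inside the distance limit was C3H1orf50, whose nearest H3K4me3 peak was 3079 bp away, with RRP8 at 3085 bp, and just outside were PROS1, at 2999 bp, and HRNR, at 2916 bp. The absence of H3K4me3 was rarely a matter of the q threshold, since only 4 of the 362 windows held any deposited H3K4me3 peak at all.

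H3K27ac, which the rule did not use, was scarce and weak at these starts. A peak lay within 3 kb of 82 of 362 starts (22.7%, 95% exact binomial interval 18.4 to 27.3), of 7250 of 7270 starts over 10 TPM with H3K4me3 (99.7%, 99.6 to 99.8) and of 1132 of 4570 starts that were not over 10 TPM and had no H3K4me3 (24.8%, 23.5 to 26.0). The interval of the chosen starts overlapped that of the silent or weakly expressed ones and was far from that of the marked ones. These intervals cover counting error only, since neighbouring genes share peaks and genes are not replicates, and both marks came from the same pools. The marks also often lay together, as given below for strong peaks. A rule on H3K4me3 thus bears on H3K27ac in the same window, and the contrast with marked starts is not independent of the rule. Only 40 starts (11%) had an H3K27ac peak in both replicates, not always at the same place in the window, and 42 had one in a single replicate. Fold values given below for a start are the highest in the window in each replicate. When only an H3K4me3 peak found in both replicates removed a start, 473 starts remained and 37.0% had H3K27ac. Where a peak was present its median fold enrichment over input was 4.00 in replicate 1 and 4.03 in replicate 2, against 37.6 and 30.9 at the starts with H3K4me3.

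**Figure D1:**
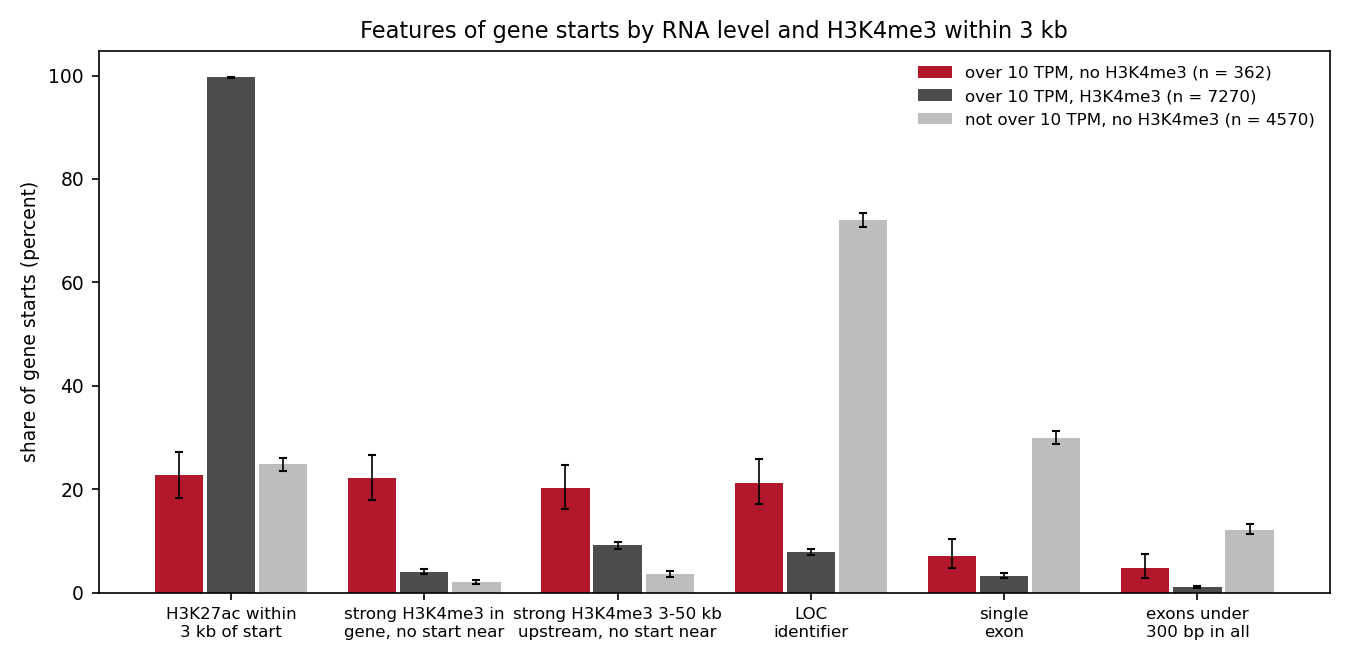
Share of gene starts (percent, vertical axis) with each of 6 features, for 362 starts over 10 TPM without H3K4me3 within 3 kb (red), 7270 over 10 TPM with it (dark grey) and 4570 not over 10 TPM without it (light grey). Error bars are 95% exact binomial intervals; the intervals of the red and light grey bars overlap for H3K27ac (22.7% and 24.8%), and the red bar is above both others for isolated strong H3K4me3, over 3 kb from every start, inside the gene (22.1%) and upstream of it (20.2%).

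The nearest H3K4me3 peak of any strength, taken from whichever replicate was closer, was a median of 10.1 kb from the start, and 25 starts had none within 50 kb. It lay upstream for 182 starts and inside the gene for 137. Most such peaks were weak, with a median fold enrichment of 4.66, but 109 reached 22.2-fold, the 10th percentile of the strongest peaks at marked starts in replicate 2. The median nearest peak of the marked starts was 50.9-fold. A gene body peak more than 3 kb from the start was found in 232 of 362 genes (64.1%) in 68.2% of the marked genes, and in 30.5% of the unmarked genes that were not over 10 TPM. When an H3K4me3 peak within 3 kb of the 5′ end of any exon also removed a gene, 142 of the 362 remained.

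**Figure D2:**
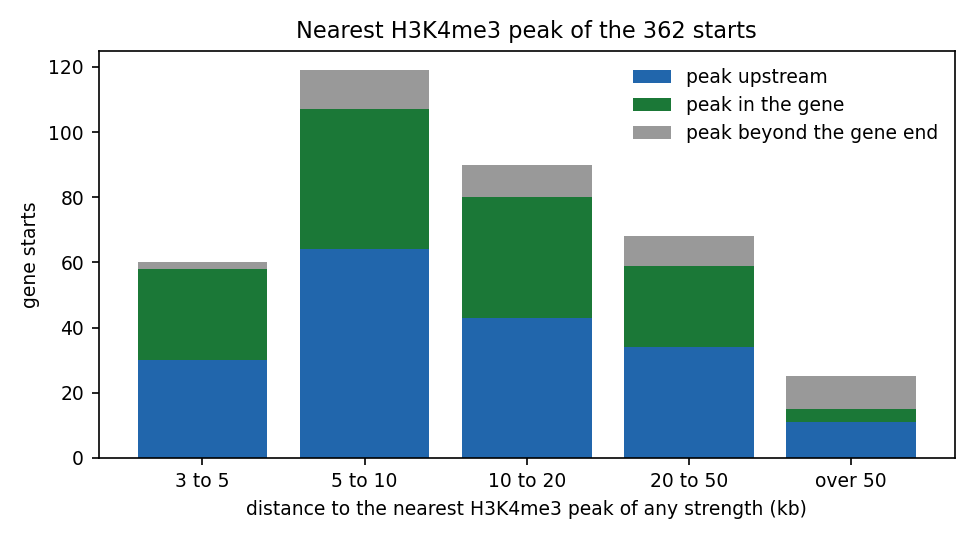
Number of the 362 starts (vertical axis) by distance in kb to the nearest H3K4me3 peak of any strength at q under 0.05 (horizontal axis), with colours for peaks upstream, in the gene and beyond the gene end. The largest class is 5 to 10 kb with 119 starts, followed by 10 to 20 kb with 90, and 25 starts lie over 50 kb from any peak.

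Strong peaks were considered next. A peak was called strong where both replicates reached the 10th percentile of the strongest peak at marked starts over 10 TPM, a fold enrichment of 19.4 in replicate 1 and 22.2 in replicate 2. There were 10901 strong peaks, of which 1906 were over 3 kb from every annotated start. A strong peak of that isolated kind lay inside 80 of the 362 genes (22.1%, 17.9 to 26.7), against 4.11% of marked genes over 10 TPM and 2.04% of unmarked genes that were not. An isolated strong peak lay 3 to 50 kb upstream of 73 (20.2%, 16.2 to 24.7), against 9.15% and 3.65%. Strong peaks 3 to 50 kb upstream of any kind, those at the starts of other genes included, were found for 40.1% of the 362, 42.3% of the marked genes and 14.9% of the others, so upstream the higher share was that of isolated peaks. Gene length differed between the sets, with a median span of 38.5 kb for the 362 genes and 21.4 kb for the marked ones. Spacing differed too, and it bears on whether a peak counts as isolated. The nearest other start was a median of 39592 bp from the 362 starts, 19788 bp from the marked ones and 31395 bp from the others. Another start lay within 3 kb for 3.31%, 21.7% and 5.21%. The part of length and of spacing in these shares was not tested.

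On these features the starts were put into 4 classes, each start going to the first that applied. A strong H3K4me3 peak lay inside the gene for 86 starts, and for 80 of them that peak was over 3 kb from any other start. An isolated strong peak lay 3 to 50 kb upstream for 66 starts. H3K27ac within 3 kb was the only feature of 54 starts, and 156 starts had none of the 3 features. Weaker H3K4me3 peaks away from the start did not count as a feature.

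**Figure D3:**
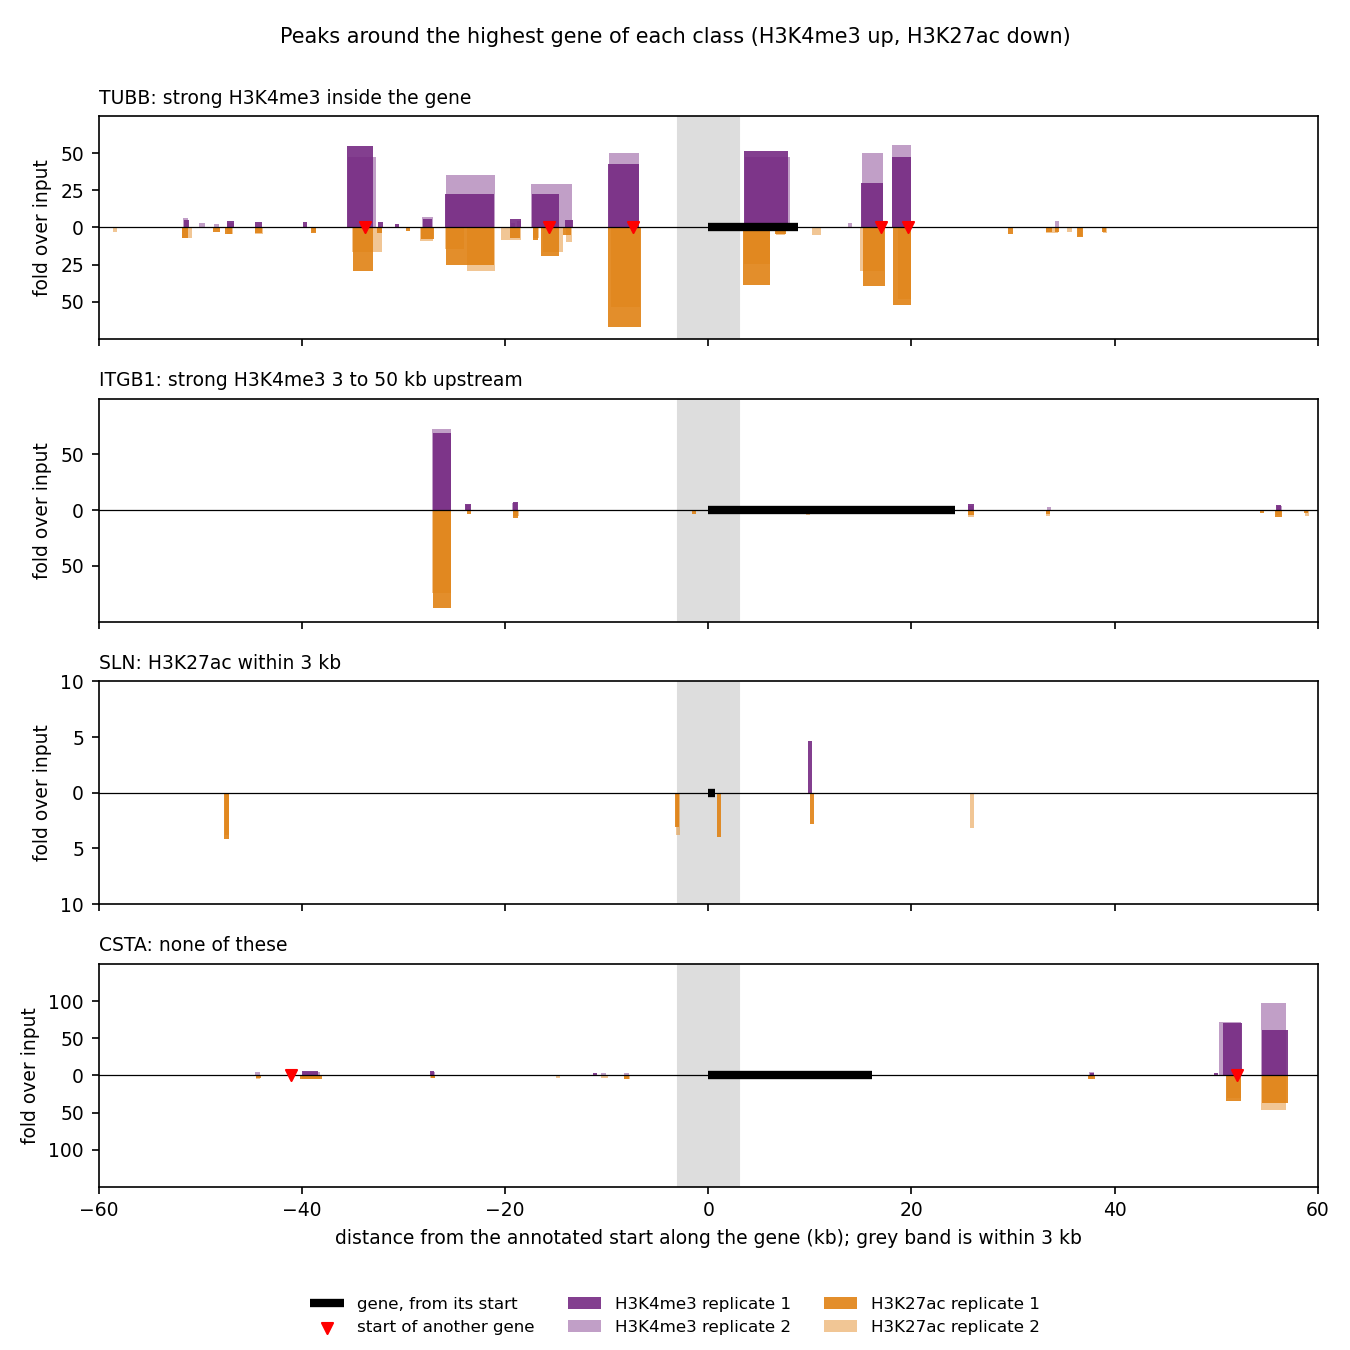
H3K4me3 peaks (purple, upward) and H3K27ac peaks (orange, downward) around the starts of TUBB, ITGB1, SLN and CSTA, the genes of highest RNA level with a symbol in each class, ribosomal proteins aside. The horizontal axis is distance from the start in kb along the gene, the vertical axis is fold over input with a scale of its own in each panel, darker bars are replicate 1, bars are drawn at least 0.4 kb wide, and red triangles are starts of other genes; the grey band within 3 kb is free of H3K4me3 in all 4 panels.

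The class with a strong peak inside the gene held 83 genes with a symbol and 3 with only a LOC identifier, the name given to a gene model without a symbol. Its genes were long, with a median span of 79.4 kb, and the peak lay a median of 17.6 kb downstream of the start. TUBB, a beta-tubulin, was the most highly expressed of them. Its levels were 746 TPM in FP1, 817 in FP2 and 648 in FP3 (737 ± 84.6, SD, n = 3), and the libraries were close to each other. Its start, at position 1138822 on the plus strand of scaffold00115_pilon_pilon, was bare, and a peak of 51.7-fold in replicate 1 and 47.7-fold in replicate 2 lay 3.52 kb inside the gene.

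The strongest peaks inside genes belonged to genes of modest level. CHD2, a chromatin remodeller, had 16, 20.6 and 17.5 TPM and a peak of 90.8-fold and 104-fold that lay 42.5 kb into a gene of 182 kb. TIMM44, part of the mitochondrial import motor, had a peak of 74.4-fold and 121-fold 6.58 kb inside. PIAS1, a SUMO ligase, had one of 85.1-fold and 103-fold 25.7 kb inside. In each of these genes the strong mark was inside the gene in both replicates, and not at the annotated start. PPP3R1, the regulatory subunit of calcineurin, and SLC25A46, a carrier of the mitochondrial outer membrane, had peaks 15.9 kb and 9.21 kb inside.

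The class with an isolated strong peak upstream held 60 genes with a symbol and 6 LOC genes. The peak was a median of 13.0 kb from the start, and for 59 of the 66 no start of another gene lay between the peak and the gene. ITGB1, the integrin beta 1 chain found on most adherent cells, had 275, 375 and 354 TPM. Its start lay at position 11259497 on the minus strand of scaffold00046_pilon_pilon, and a peak of 69.0-fold and 72.7-fold lay 25.3 kb upstream. ARPC2, a core subunit of the Arp2/3 complex that branches actin filaments, had 285, 354 and 349 TPM and a peak of 87.8-fold and 119-fold only 3.30 kb upstream. Both genes were lowest in FP1 and differed little between FP2 and FP3.

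The same position of the peak was seen at EIF3E, a subunit of translation initiation factor 3, with 250, 298 and 317 TPM and a peak of 63.8-fold and 73.0-fold 5.93 kb upstream. IDH2, the mitochondrial isocitrate dehydrogenase, had 232, 234 and 176 TPM and its peak of 64.0-fold and 46.0-fold 8.02 kb upstream. The strongest upstream peak was that of GIGYF2, a translational repressor, with 118-fold and 97.5-fold at 39.9 kb. All 5 genes had their strong mark ahead of the model, at distances from 3.30 to 39.9 kb. ACBD6, an acyl-CoA-binding protein, and PBX4, a homeodomain protein, had theirs 6.92 kb and 6.63 kb upstream. The PBX4 peak lay inside LPAR2 and was nearer to the start of that gene, at 4456 bp. SEC24A, a coat protein of transport vesicles, had an isolated strong peak 9.12 kb upstream and a further one in the gene, and was counted in the first class.

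H3K27ac accompanied these peaks away from the annotated starts. All 86 strong peaks inside genes and all 66 upstream had an H3K27ac peak over them in both replicates, as did all 1906 isolated strong peaks and all 10901 strong peaks of the assembly. Its median fold enrichment was 46.5 and 37.0 at the peaks inside genes and 38.2 and 34.4 at those upstream. The medians were 29.8 and 25.3 over the isolated strong peaks as a whole and 34.2 and 28.8 over all strong peaks. Only the strongest H3K4me3 peak of each gene was taken in both classes, so the medians do not compare like with like. Within 3 kb of the annotated starts of the same genes, H3K27ac was present for 18 of 86 and 10 of 66.

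The 54 starts with H3K27ac alone held 38 genes with a symbol and 16 LOC genes. Some were muscle genes of high level. SLN, sarcolipin, the small inhibitor of the calcium pump of muscle, had 2747, 2135 and 3742 TPM. It was highest in FP3 and lowest in FP2. Its transferred model has 1 exon, on the minus strand of scaffold00005_pilon_pilon, with the start at position 2423816. H3K27ac within 3 kb reached 4.00-fold in replicate 1, about 1 kb downstream, and 3.79-fold in replicate 2, about 3 kb upstream, where replicate 1 had 3.09-fold. The nearest H3K4me3 peak was 9.82 kb away at 4.67-fold in replicate 1, while the nearest of replicate 2 was 86016 bp away. The nearest strong peak was 113 kb away at the start of ELMOD1. CASQ2, calsequestrin of heart and slow muscle, had 244, 226 and 486 TPM and H3K27ac of 2.89-fold and 5.69-fold. H3K4me3 inside CASQ2 reached 8.70-fold and 13.7-fold, under the limit for a strong peak.

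The strongest H3K27ac among genes with a symbol that had it in both replicates was still low. C2H19orf12 had 5.08-fold and 8.85-fold, AQP7, a channel for water and glycerol, had 8.31-fold and 5.06-fold, and SMTNL1, a smoothelin-like muscle protein, had 6.16-fold and 5.46-fold. TNNI1, troponin I of slow skeletal muscle, had 6.46-fold and 4.30-fold with 151, 149 and 63.3 TPM. PLVAP, a protein of the diaphragms of fenestrated endothelium, had 5.98-fold and 4.70-fold with 243, 130 and 117 TPM. Both genes were highest in FP1, with FP2 close to it for TNNI1 and close to FP3 for PLVAP. H3K4me3 inside PLVAP reached 15.5-fold and 15.8-fold, also under the limit for a strong peak.

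The 156 starts with none of the 3 features included the matrix and skin genes of highest level. CSTA, cystatin A, a protease inhibitor of the cornified layer, had 573, 1419 and 1047 TPM. COL3A1, a fibrillar collagen of loose connective tissue, had 699, 1328 and 625 TPM, and its nearest strong H3K4me3 peak was 257 kb away, at the start of COL5A2. POSTN, periostin of the periosteum and other fibrous tissue, had 575, 1010 and 683 TPM, and its nearest strong peak was 845 kb away. All 3 genes were highest in FP2. The fibrous matrix list summed to 6380, 10892 and 5525 TPM and the list of suprabasal skin genes to 9761, 13458 and 13892 TPM in FP1, FP2 and FP3, and the part of tissue make-up in the levels of these genes was not tested.

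A set of 11 epithelial genes was grouped after their values had been seen and carries no test, namely SPINK7, SPINK5, IL36RN, SERPINB5, UPK1B, SCEL, TMEM40, ENDOU, CERS3, ZNF750 and ABCA12. SPINK7 and SPINK5 are serine protease inhibitors of stratified epithelia, and their levels were 270, 602 and 588 TPM and 114, 474 and 213 TPM. SCEL, sciellin, a precursor of the cornified envelope, had 41.2, 215 and 105 TPM. CERS3 and ABCA12 make and carry the lipids of the skin barrier, and ZNF750 is a transcription factor of epidermal differentiation. Over all 362 starts FP1 had the lowest median, 26.3 TPM against 37.4 in FP2 and 29.2 in FP3, and was the highest library for 52. FP1 was the lowest library for all 11, as it was for the sum of the suprabasal list. Other epithelial genes did not share this order, since the keratin list summed to 18507, 16829 and 23178 TPM and MIR205, a microRNA gene of epithelia, had 114, 47.0 and 65.9 TPM. Of the 11, 5 had weak H3K27ac within 3 kb, beside 22.7% of all 362, and 0 had a strong H3K4me3 peak inside the gene or an isolated one upstream, beside 42% of all 362. KLF5, an epithelial transcription factor outside this set, had 101, 186 and 213 TPM and a strong peak of 71.0-fold and 53.9-fold inside the gene. The nearest strong peak was 29.7 to 774 kb away and for 10 of the 11 it was at the start of another gene.

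**Figure D4:**
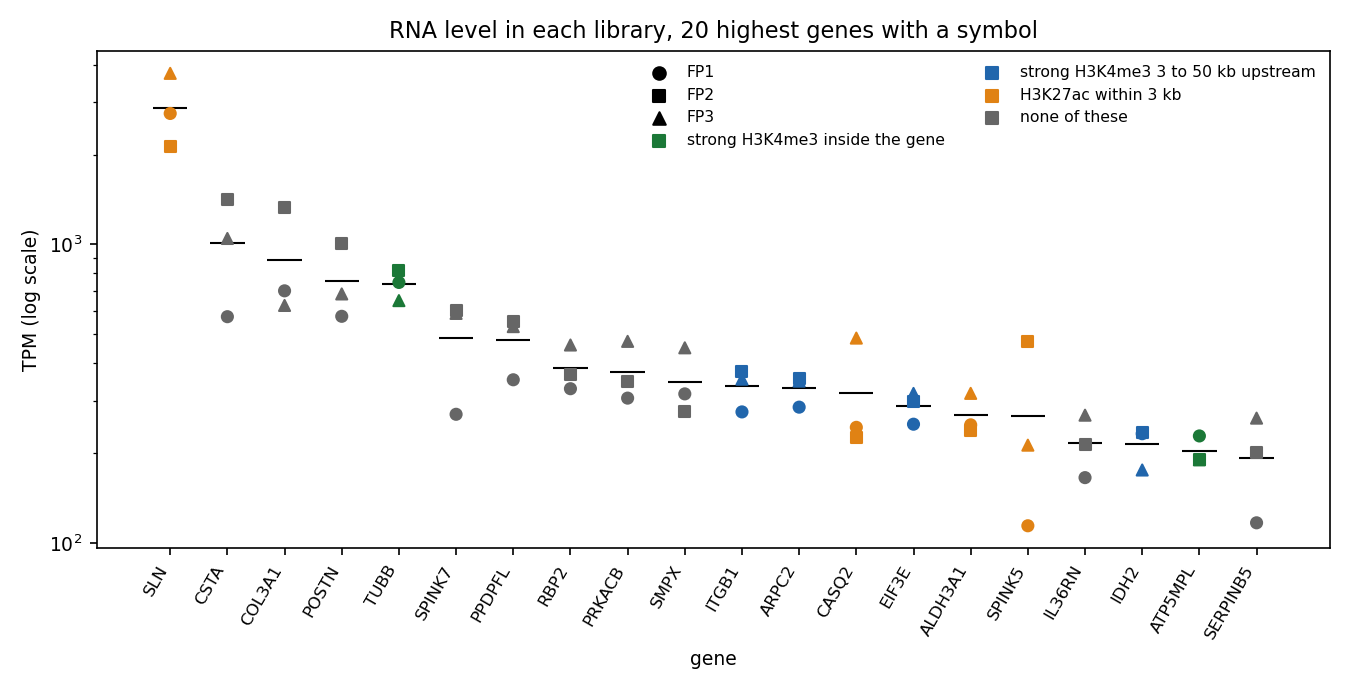
RNA level in TPM (vertical axis, log scale) in each of 3 libraries for the 20 genes of highest mean level that have a symbol, ribosomal proteins left out. Circles, squares and triangles are FP1, FP2 and FP3, horizontal lines are means, and colours are the 4 classes; CSTA, COL3A1, POSTN and SPINK5 spread more between libraries than TUBB, ARPC2 or EIF3E.

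Gene lists for tissues and for ubiquitous complexes were then counted. Because the lists were read against the values that chose the starts, the counts are descriptions, to be set beside 4.74% of all genes over 10 TPM. Of slow and cardiac muscle genes, 4 of 8 over 10 TPM were among the 362 (CASQ2, TNNC1, TNNI1 and ACTC1), of sarcomere scaffold genes 6 of 24 (SMPX, MYOM2, MYOT, MYOM1, NEB and XIRP2), of bone genes 2 of 7 (SPP1 and IBSP), of olfactory genes 2 of 7 (STOML3 and ANO2), and of fibrous matrix genes 2 of 20 (COL3A1 and POSTN). Fast muscle fibre genes (11 over 10 TPM), keratins (11), facial mesenchyme and neural crest genes (20), immediate early genes (17) and myogenic regulators (7) had 0 each. Genes were matched to the lists by symbol, so the 77 LOC genes among the 362 were in no list. A count of 0 therefore covers genes with a symbol only. PLVAP was 1 of 5 endothelial genes and CSTA 1 of 19 suprabasal and barrier genes. The count was 0 of 4 genes over 10 TPM for smooth muscle, 0 of 6 for the neuromuscular synapse and 0 of 6 for cartilage. It was 0 of 2 for leukocytes, 0 of 5 for neurons, 0 of 2 for glia, 0 of 1 for melanocytes and 0 of 1 for lens and liver. In lists this short a count of 0 says little. In ubiquitous lists the counts were 2 of 67 for cytosolic ribosomal proteins, 2 of 65 for mitochondrial ribosomal proteins and 2 of 52 for oxidative phosphorylation. They were 0 of 24 for cell cycle, 1 of 36 for proteasome, 1 of 51 for translation, 1 of 63 for splicing and 1 of 52 for chaperone genes.

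The 19 members from tissue lists and the 10 from ubiquitous lists were compared by where the strong H3K4me3 lay. Of the 19 tissue genes, 1 had a strong peak inside the gene and 0 had an isolated one upstream. That gene was TNNC1, the slow and cardiac troponin C, and its peak was at the start of NISCH, 7.42 kb from its own start. Of the 10 ubiquitous genes, 6 had one, 5 of them upstream (EIF3E, SDHC, MRPS33, DNAJC15 and PRPF18) and 1 inside (ATP5MPL). The nearest strong peak was at the start of another gene for 17 of 19 tissue genes and 4 of 10 ubiquitous genes, at median distances of 85.0 kb and 14.6 kb. The genes were chosen with results known and are few, and no test was made of the difference.

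**Figure D5:**
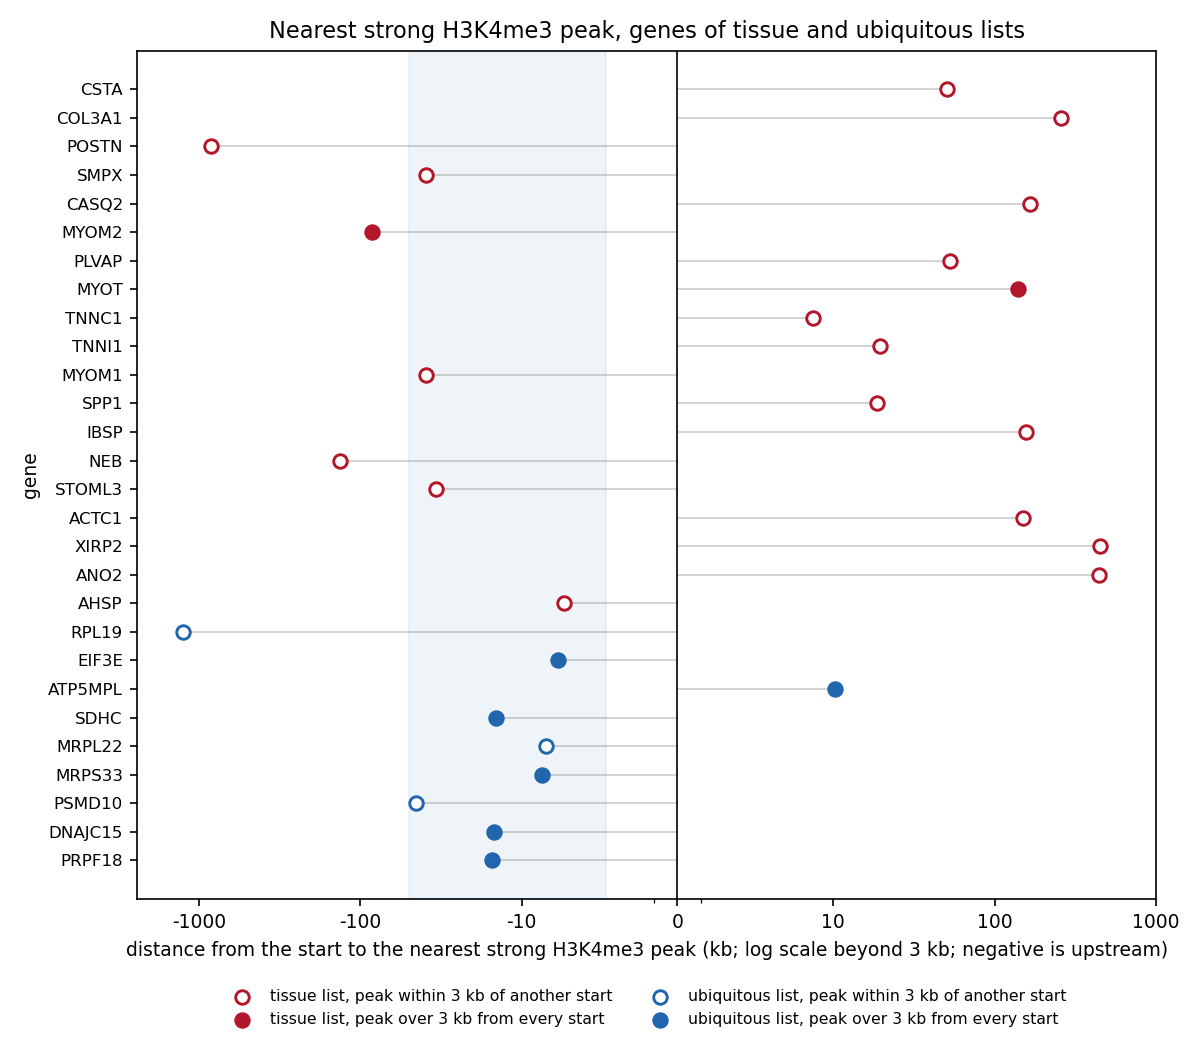
Distance in kb from the start to the nearest strong H3K4me3 peak (horizontal axis, log scale beyond 3 kb, negative is upstream) for the 19 tissue list genes (red) and 9 of the 10 ubiquitous list genes (blue) among the 362. Open circles are peaks within 3 kb of another gene's start and filled circles are over 3 kb from every start; the shaded band is 3 to 50 kb upstream, where 5 ubiquitous genes have a filled circle.

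The muscle genes of the scaffold list shared their highest library. SMPX, a small protein of the contractile apparatus, had 316, 275 and 451 TPM, MYOM2, a myomesin of the M-band, had 162, 164 and 247 TPM, and NEB, nebulin of the thin filament, had 63.0, 63.4 and 103 TPM. All 6 scaffold members were highest in FP3, as were 71 of the 362 genes and 958 of all 7632 over 10 TPM. The list as a whole, these 6 included, summed to 5157 TPM in FP3 against 3768 in FP1 and 3415 in FP2. TNNC1 and TNNI1 were instead lowest in FP3. The other slow and cardiac muscle members, CASQ2 and ACTC1, were highest in FP3. The slow and cardiac list as a whole was also highest there, with 3869, 3434 and 5102 TPM in FP1, FP2 and FP3. The bone genes SPP1, osteopontin, with 70.3, 223 and 27.2 TPM, and IBSP, bone sialoprotein, with 70.9, 231 and 14.1 TPM, were many times higher in FP2 than in FP3. The whole bone list moved less, from 4079 TPM in FP2 to 2816 in FP3.

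The ubiquitous genes with the peak ahead of the model differed in level and spread. SDHC, a membrane subunit of succinate dehydrogenase, had 201, 195 and 177 TPM and a peak of 65.4-fold and 50.5-fold 14.4 kb upstream. DNAJC15, a mitochondrial co-chaperone, had 73.4, 70.8 and 56.6 TPM and its peak 14.8 kb upstream, and ATP5MPL, a small subunit of ATP synthase, had 228, 190 and 190 TPM and its peak 10.3 kb inside the gene. PRPF18, a splicing factor, had 15.9, 27.4 and 18.0 TPM with its peak 15.2 kb upstream, and MRPS33, of the mitochondrial ribosome, had 84.2, 76.3 and 57.4 TPM with its peak 7.49 kb upstream. MRPL22 was in the class with none of the features because its nearest strong peak, 7.09 kb upstream, lay within 3 kb of the start of GEMIN5.

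Gene models differed from those of the marked genes as well. A LOC identifier in place of a symbol was carried by 77 of 362 (21.3%, 17.2 to 25.9), against 7.83% of marked genes over 10 TPM and 72.1% of unmarked genes that were not. A single exon was found in 26 (7.18%, 4.75 to 10.3), against 3.31% and 30.0%, and a summed exon length under 300 bp in 17 (4.70%, 2.76 to 7.41), against 1.11% and 12.2%. Each share lay between those of the other sets. A strong peak inside the gene or isolated upstream was found for 143 of 285 genes with a symbol (50.2%, 44.2 to 56.1) and for 9 of 77 LOC genes (11.7%, 5.49 to 21.0). The median span was 51632 bp for the genes with a symbol and 10249 bp for the LOC genes, and 94% and 74% exceeded 3 kb. A gene of 3 kb or less cannot hold a peak over 3 kb inside it. The part of gene length in this difference was not tested. H3K27ac within 3 kb was found for 22.5% of the genes with a symbol and 23.4% of the LOC genes.

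The single-exon models were mostly short or nested. Of the 26, 14 were LOC genes, 14 lay inside another gene and 13 had less than 300 bp of exon. A group of 6 LOC models lay inside TAF1D, a gene for a subunit of an RNA polymerase I factor, and had 71 to 137 bp of exon in the 3 examples named here. LOC111719804 had 77.3, 57.7 and 61.8 TPM, LOC111719798 had 52.1, 61.6 and 33.2 TPM, and LOC111719803 had 14, 17 and 13.8 TPM. All 3 had the same nearest strong peak, at the start of TAF1D itself, 5.12 to 7.85 kb upstream. The microRNA genes MIR205, of epithelia, and MIR133A, of muscle, were also in the set, with a mean of 75.6 TPM over 151 bp and 38.5 TPM over 129 bp, and at such lengths few counts make a high TPM.

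The order of neighbouring genes gave a check on where models had been placed. For each gene with a symbol, the 2 nearest such genes on each side were looked up in the RefSeq annotation of another dunnart assembly, ASM4859323v1, where a neighbour counted as kept within 5 places of the gene in gene order. This comparison was added after the data had been seen. None was kept for 12 of 272 members with at least 2 neighbours to compare (4.41%), for 32 of 6407 marked genes over 10 TPM (0.499%) and for 111 of 1102 unmarked genes that were not (10.1%). In the classes with a strong peak inside the gene or upstream, 0 of 82 and 0 of 60 had lost all neighbours, against 5 of 36 with H3K27ac alone and 7 of 94 with none of the features.

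The 12 models with no neighbour kept included RPL19, CKAP4, SNX4, PDIA3, ACTC1, G3BP2 and NOLC1. Of them, 9 had a single exon and 6 lay inside another gene. RPL19, a protein of the large ribosomal subunit, had the highest RNA level of all 362 with 6375, 4587 and 5352 TPM, from a model of 2 exons and 218 bp. PDIA3, a disulfide isomerase of the endoplasmic reticulum, had 1 exon of 341 bp. ACTC1, cardiac actin and one of the 4 slow and cardiac muscle genes counted above, had 2 exons and 470 bp with 50.2, 50.5 and 56.7 TPM. Ribosomal proteins and actins belong to families with near-identical copies, between which counts can be split, so the levels of RPL19 and ACTC1 are uncertain.

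The LOC genes of highest level are given by identifier only. LOC100919827 had 2886, 3497 and 3488 TPM from 38 exons over 44.8 kb, and its nearest H3K4me3 peak was 8.83 kb upstream at 3.53-fold. LOC100913500 had 609, 3279 and 4193 TPM from 3 exons, and was far lower in FP1 than in the other libraries. LOC100913611 had 921, 2453 and 1192 TPM and H3K27ac of 4.27-fold in replicate 1 only. LOC100921628 had 755, 1642 and 1173 TPM, and LOC100921096 had 161, 883 and 229 TPM. The last 3 were highest in FP2, and none of the 5 had a strong H3K4me3 peak inside the gene or an isolated one upstream.

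Some tissue genes named for comparison were not among the 362, since the rule found H3K4me3 at their starts. TNNI2, troponin I of fast muscle, had 4657, 3445 and 4960 TPM and H3K27ac of 10.2-fold and 10.8-fold at its start, and H3K4me3 there was 7.09-fold and 9.46-fold. GATA1, a regulator of red cell development, had 23.8, 20.1 and 21.1 TPM, and SNAI2, a regulator of neural crest, had 73.1, 87.7 and 82.9 TPM, and both had H3K4me3 at their starts. It was 40.8-fold and 32.0-fold at SNAI2. For GATA1 the highest peak in the window was 32.0-fold and 41.4-fold, but it lay 1.61 kb downstream, at the start of HDAC6. The peak that covered the GATA1 start itself was 4.66-fold. AHSP, the stabilising protein of alpha globin, was the only one of 7 erythroid genes over 10 TPM among the 362, with 13.8, 16.1 and 21.5 TPM, and the nearest strong peak was 5.44 kb upstream at the start of another gene.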

How the data were processed

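Per the labels and the study's methods, ChIP reads were trimmed with cutadapt (1.9.1), aligned with Bowtie2 (2.3.5.1) and deduplicated with Picard (2.23.1), and the authors called peaks for each replicate with MACS2 (2.1.1) against its input. The deposited peak lists give fold enrichment over input, which is a ratio, and the −log10 of p-values and q-values. A display score was not used. RNA was aligned with HISAT2 (2.21), and the deposited counts per gene over exons were made by the authors with Subread (2.0.1), reverse stranded. TPM was computed here from counts and summed exon length. The 11 genes on broken lines were left out (21703 models, 21692 used). Coordinates are 1-based on the study's own assembly. No test was made. Starts, lists and classes were chosen with earlier results of these data known. Named genes were the 20 symbol genes of highest TPM, the 5 highest LOC genes, the 5 highest by H3K27ac, by peak inside the gene and by peak upstream, up to 4 per list, those at the limits, and SNAI2, GATA1 and TNNI2. The other genes named, among them the epithelial set, KLF5, the single-exon and moved models and those of the closing section, were chosen after their values were seen. The rule's code was tested on simulated data. Alternatives used scaling factors from edgeR (4.0.16) and DESeq2 (1.42.0). Other tools were Python (3.11.15), pandas (2.3.3) and SciPy (1.17.1). Results for some genes are not reported here.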

Additional observations from a re-analysis of the deposited data

How the results depend on the processing

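No paired analysis was possible because the results come from no test. The number of starts, 362, was 183 with a window of 10 kb, 206 at 20 TPM and 142 when a peak at the 5′ end of any exon counted, and 345 to 524 under the 15 other settings. The share with H3K27ac, 22.7%, was 17.0% with a window of 1 kb, 41.5% with 10 kb (both marks), 37.0% when only H3K4me3 in both replicates removed a start and 11% when H3K27ac was needed in both. The share with H3K4me3 in the gene body, 64.1%, was 57.9% with 10 kb, 53.9% in both replicates, 23.8% for strong peaks, 22.1% for strong peaks over 3 kb from every start and 13.4% with any exon. With any exon the single-exon share was 18.3% and the LOC share 34.5%, and the single-exon share was 3.77% among models of at least 300 bp. The last 2 kinds of setting (isolated strong peaks, 300 bp) were chosen after seeing the data. Leaving out 1 replicate or RNA library at a time gave 369 to 419 starts, 16.3 to 31.3% with H3K27ac, 58.5 to 64.4% with a body peak, 7.64 to 7.86% with a single exon and 21.3 to 22.4% with a LOC identifier. The larger windows and stricter limits change which starts qualify by construction, and other causes were not tested.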

Other observations

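Further muscle genes outside the fixed lists were among the 362 starts, and they are given as values chosen after seeing the data. CAVIN4, a caveolar protein of muscle, had 139, 148 and 198 TPM in FP1, FP2 and FP3, and NRAP, an anchor of thin filaments, had 48.3, 63.9 and 73.8 TPM. Both were highest in FP3 and had no H3K27ac within 3 kb.

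Genes of the matrix and its turnover were found as well. MMP7, a matrix protease, had 34.9, 27.2 and 46.0 TPM, and TNN, tenascin N of bone and periosteum, had 66.1, 93.8 and 89.0 TPM. Of these, TNN had H3K27ac within 3 kb, of 3.90-fold in replicate 1 only. MMP1, a collagenase, had 33.5, 19.4 and 85.3 TPM, so that its highest library exceeded the other two by more than these differed from each other.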
